A study of Mus musculus with 2 samples.

Results

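The cells described here were chondrocytes of the fetal mouse femur that carried *Ucma* transcripts and none of *Epyc* or *Prg4*. They numbered 517 of 12356 cells kept from both libraries, 160 of 5736 in the wild-type (WT) library and 357 of 6620 in the Bmx-CreER Wls library. A cell was taken when it had at least 2 *Ucma* unique molecular identifiers (UMIs, each standing for 1 captured transcript molecule), no UMI of *Epyc* or *Prg4*, at most 1 of *Bpifb1*, at least 20 *Col2a1* UMIs and under 20 *Col10a1* UMIs per 10000 UMIs of the cell, and at most 2 summed UMIs of the mitotic genes *Top2a*, *Cenpf* and *Prc1*. The cells were therefore chosen by their own counts, and all values given are descriptions without a test. They are called *Ucma*+*Epyc*- cells here.

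The study asked which non-haematopoietic cells of the fetal bone marrow form the surroundings of blood stem cells and what the arterial endothelium contributes to them. Femoral marrow of C57BL/6 embryos at E18.5 was crushed and digested with collagenase, lineage-positive blood cells were removed with magnetic beads, and the remainder was profiled by BD Rhapsody whole-transcriptome single-cell RNA sequencing, in which cells are captured in microwells. The comparison in the series is between a WT library and a library of embryos carrying Bmx-CreER and *Wls* alleles, in which tamoxifen-activated Cre under the arterial endothelial gene *Bmx* removes *Wls*, the carrier that Wnt proteins need for secretion. The paper used this Cre to target arterial endothelial cells, and its activity in chondrocytes was not measured here. Whether the WT embryos came from tamoxifen-treated dams is not given in the sources used here. Each condition had 1 library, so no value between conditions has a replicate, and cells of 1 library are not replicates of each other. All intervals are 95% intervals that cover counting error only: exact Poisson for levels, Clopper-Pearson for shares and conditional binomial for ratios. A level is the UMI count of a gene summed over a set of cells, scaled to 1000000 UMIs of that set (CPM), and of 2 values set side by side the first is from WT.

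A long bone grows from cartilage that is layered by age. Small round chondrocytes at the far end form a reserve or resting zone, their progeny divide in columns, then stop dividing, swell and express type X collagen before bone replaces them, while the cells under the joint surface make lubricin, the product of *Prg4*. Resting chondrocytes are known as a source of parathyroid hormone-related protein and of Wnt and BMP antagonists. *Ucma* encodes a secreted Gla protein that is made by chondrocytes of the upper growth plate, and *Epyc* encodes epiphycan, a small leucine-rich proteoglycan of the growth plate cartilage.

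The windows before the transcription starts of *Ucma* and *Epyc*, the pair of genes that set these cells apart from their nearest neighbours, and of *Matn4*, the marker that stood highest over other cartilage after *Ucma* itself, are given with capitals for motif letters. Each window is the 250 bases upstream of a RefSeq start in GRCm38.p6, printed 5′ to 3′ on the gene's own strand. The capitals mark the SOX core letters ACAAT and the RUNX core letters ACCACA, searched on both strands. The *Ucma* gene lies at chr2:4976122-4985748 on the plus strand, and its window is chr2:4975872-4976121. *Epyc* lies at chr10:97644068-97682454 on the plus strand with its window at chr10:97643818-97644067. *Matn4* lies at chr2:164389393-164405160 on the minus strand with its window at chr2:164405161-164405410.
Ucma: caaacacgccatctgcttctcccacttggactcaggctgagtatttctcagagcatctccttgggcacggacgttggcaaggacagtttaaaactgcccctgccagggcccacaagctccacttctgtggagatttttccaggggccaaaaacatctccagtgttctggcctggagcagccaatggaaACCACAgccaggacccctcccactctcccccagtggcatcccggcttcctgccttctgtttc
Epyc: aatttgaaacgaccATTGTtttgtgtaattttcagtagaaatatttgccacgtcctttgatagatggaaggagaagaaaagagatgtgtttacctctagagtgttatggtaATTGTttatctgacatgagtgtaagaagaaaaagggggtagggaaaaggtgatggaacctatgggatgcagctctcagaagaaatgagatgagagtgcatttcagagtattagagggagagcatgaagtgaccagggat
Matn4: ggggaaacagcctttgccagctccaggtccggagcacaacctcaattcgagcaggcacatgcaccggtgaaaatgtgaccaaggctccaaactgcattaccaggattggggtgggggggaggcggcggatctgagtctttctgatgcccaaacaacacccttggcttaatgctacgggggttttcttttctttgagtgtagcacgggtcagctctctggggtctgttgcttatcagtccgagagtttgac
The *Ucma* window held 1 match to the RUNX letters, 62 bases before the start, and no match to the SOX letters. The *Epyc* window held 2 matches to the SOX letters, both on the reverse strand at 236 and 139 bases before the start, and none to the RUNX letters. Neither was found in the *Matn4* window. *Epyc* and *Matn4* each have a second RefSeq start whose window is not printed: that of *Epyc* held 3 matches to the SOX letters and none to the RUNX letters, and that of *Matn4* held neither. Over 32851 RefSeq windows of this length, 27.7% held the SOX letters and 14% the RUNX letters, so that these matches are common.

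The WT and Bmx-CreER Wls libraries held 22708005 and 24704991 UMIs over 5998 and 6825 barcodes, of which 49 barcode sequences were shared between the libraries. The kept cells had medians of 3128 and 3067 UMIs. The *Ucma*+*Epyc*- cells were somewhat shallower, with medians of 2403.5 and 2560 UMIs and 1126 and 1223 genes per cell. Summed over cells they gave 393535 and 962936 UMIs. Their mitochondrial share had a median of 4.32% and 3.47%, and 2 cells of each library carried a shared barcode.

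The *Ucma*+*Epyc*- cells made up 2.79% [2.38 to 3.25] of the kept WT cells and 5.39% [4.86 to 5.96] of the kept Bmx-CreER Wls cells. Among cartilage cells, meaning kept cells with at least 20 *Col2a1* UMIs per 10000, the shares were 5.99% [5.12 to 6.96] of 2670 and 8.12% [7.33 to 8.97] of 4395. The share was thus higher in the Bmx-CreER Wls library on either denominator. It also depends on *Epyc*, since *Epyc* UMIs excluded 61.8% and 53.1% of cartilage cells with at least 2 *Ucma* UMIs. The part of *Epyc* in the difference was not tested. With 1 library per condition, genotype, dissection and digestion of that library cannot be told apart.

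*Epyc* was the limit that removed most *Ucma*-bearing cells. Of cartilage cells with at least 2 *Ucma* UMIs, 1114 in WT and 1519 in Bmx-CreER Wls, 14.4% [12.4 to 16.6] and 23.5% [21.4 to 25.7] met every limit. *Epyc* UMIs were present in 61.8% and 53.1%, *Prg4* UMIs in 22.9% and 22.8%, and more than 2 mitotic UMIs in 20.9% and 19.8%. The cells removed for *Epyc* alone numbered 515 and 601, with medians of 3196 and 3097 UMIs, and were kept as a set for comparison (*Ucma*+*Epyc*+ cells). Other sets were cells with at least 2 UMIs of *Epyc* and none of *Ucma* or *Prg4* (*Epyc*+ cells, 151 and 242), the same for *Prg4* (*Prg4*+ cells, 385 and 790) and cells with none of *Ucma*, *Epyc* and *Prg4* (triple-negative cells, 206 and 511), all within the remaining limits.

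At the *Ucma* threshold *Matn4* and *Matn1* changed little from one side to the other. Cells with 1 *Ucma* UMI, just outside the rule, numbered 47 and 133 and had *Matn4* at 518 and 330 CPM. Cells with exactly 2, just inside, numbered 26 and 66 and had *Matn4* at 475 and 326. *Matn1* stood at 1171 and 2225 outside and at 1037 and 2181 inside. At the *Epyc* threshold *Matn4* changed little as well, at 368 and 473 in the 37 and 66 cells excluded for a single *Epyc* UMI against 417 and 409 in the cells taken, whereas *Matn1* and *Tnn* differed more. The excluded cells had *Matn1* at 7599 and 7160 against 2290 and 3187, and *Tnn* at 9.96 and 88.9 against 135 and 137.

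*Ucma*+*Epyc*- cells expressed the chondrocyte programme. The cell-by-cell *Col2a1* level, UMIs per 10000, ran from 36.3 through a median of 568 to 2626 in WT. In Bmx-CreER Wls it ran from 123 through 615 to 1479. That all cells lay above 20 was fixed by the rule, and other cartilage cells were taken by the same limit. *Sox9*, the master regulator of cartilage, stood at 2025 [1887 to 2171] and 1944 [1857 to 2034] CPM, against 1867 and 1809 in other cartilage cells. *Acan*, the large aggregating proteoglycan, stood at 4388 and 5232 against 5463 and 5285, and *Col9a1*, a chain of fibril-associated type IX collagen, at 10988 and 10620 against 12289 and 10081. These general cartilage genes were close to the rest of the cartilage, and the set differed in other genes.

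Markers of blood, endothelial and muscle cells were near 0, whereas lists of connective tissue were not. No UMI of 8 erythroid genes was found, and 9 haematopoietic genes summed to 20 and 33 UMIs over all the cells, 8 endothelial genes to 33 and 63, 9 macrophage genes to 3 and 6, 6 osteoclast genes to 23 and 51, and 8 muscle genes to 2 and 0. The tendon list summed to 1525 and 4698 UMIs, of which 1510 and 4644 were *Fmod*, a small leucine-rich proteoglycan, and the tendon genes *Scx* (2 and 6 UMIs) and *Tnmd* (0 and 4) were near 0. The list stood at 3875 and 4879 CPM against 2507 and 4281 in other cartilage. Of its 5 genes tested, 0 were at least 2-fold higher and 2 lower in both libraries, beside 0.340% and 4.23% of all genes tested. The mural list summed to 486 and 1149 UMIs, of which 479 and 1133 were *Cspg4*, a membrane proteoglycan, and *Acta2*, *Rgs5*, *Myh11*, *Tagln* and *Kcnj8* had none; it stood at 1235 and 1193 CPM against 1127 and 1208. The stromal and perichondrial list summed to 7206 and 13063 UMIs, of which *Col1a1* gave 5612 and 9309 and *Col3a1*, type III collagen, 1386 and 3332. It stood at 18311 and 13566 CPM against 9039 and 9621, with 0 of 8 genes tested at least 2-fold higher in both libraries. The part of such cells in the results was not tested. *Col1a1*, which osteoblasts, perichondrial and fibrous cells make in quantity, reached 14260 and 9667 CPM against 6786 and 6581 in other cartilage cells. The osteoblast genes *Ibsp* (9 and 13 UMIs), *Sp7* (6 and 5) and *Alpl* (3 and 9) stayed near 0. In blood cells of the same libraries, *Col1a1* stood at 629 and 235 CPM.

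Of the markers that accompany *Ucma*, *Matn4* had the largest ratio over the rest of the cartilage. *Matn4*, a matrilin that links matrix filaments, stood at 417 [355 to 486] CPM in WT and 409 [370 to 452] in Bmx-CreER Wls. Other cartilage cells had 160 and 184, a ratio of 2.60 [2.20 to 3.06] and 2.23 [2 to 2.48]. The level was also above that of the 4 other sets, which ran from 111 to 219 in WT and from 147 to 295 in Bmx-CreER Wls. The level was about the same in both libraries. *Ucma*+*Epyc*+ cells had 206 and 213, but those of them with a single *Epyc* UMI had 368 and 473, and cells with a single *Ucma* UMI had 518 and 330.

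The Wnt antagonists *Frzb* and *Sfrp1* had different distributions. *Frzb* stood at 310 [257 to 370] and 281 [249 to 317] against 157 and 165 in other cartilage, a ratio of 1.97 [1.63 to 2.38] and 1.70 [1.5 to 1.93]. *Sfrp1* stood at 206 [163 to 256] and 308 [274 to 346] against 135 and 155, a ratio of 1.52 [1.20 to 1.90] and 1.99 [1.76 to 2.25]. In *Ucma*+*Epyc*+ cells, however, *Sfrp1* was higher than in the *Ucma*+*Epyc*- cells, at 267 and 399, while *Frzb* was lower, at 141 and 230. *Prg4*+ cells had little of either, with *Sfrp1* at 51.9 and 54.6 and *Frzb* at 75.4 and 76.5. Cartilage cells above the *Col10a1* limit of the rule carried *Frzb* in 66.2% and 66.4% of cells, against 40.0% and 44.3% of the set. Those cells were deeper, with medians of 6567 and 6909 UMIs. With each cell thinned to 1000 UMIs, *Frzb* was found in 31.7% and 24.3% of them against 27.7% and 24.5% of the set. *Frzb* was thus not particular to the set. *Epyc*+ cells, which had no *Ucma* UMI, stood at 129 and 174 for *Sfrp1*. They carried it in 38.4% and 44.6% of cells against 36.2% and 46.2% of the set, and in 17.3% and 17.6% against 17.6% and 23.6% with each cell thinned to 1000 UMIs.

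*Scube3* encodes a secreted glycoprotein of the signal peptide-CUB-EGF family. It stood at 221 [177 to 273] and 240 [210 to 273] CPM, against 122 and 151 in other cartilage cells and 185 and 272 in *Ucma*+*Epyc*+ cells. Its interval overlapped that of the *Ucma*+*Epyc*+ cells in both libraries. No marker was in every cell: *Matn4* was found in 57.5% and 54.3% of the cells, *Frzb* in 40.0% and 44.3%, *Sfrp1* in 36.2% and 46.2% and *Scube3* in 36.9% and 41.7%. In blood cells, which should lack these genes and had medians of 7002 and 6924 UMIs, each of these markers was found in at most 1.38% of cells. With each cell thinned to 1000 UMIs, *Matn4* was found in 32.7% and 34.2% of *Ucma*+*Epyc*- cells against 17.1% and 16.9% of other cartilage cells.

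**Figure D1:**
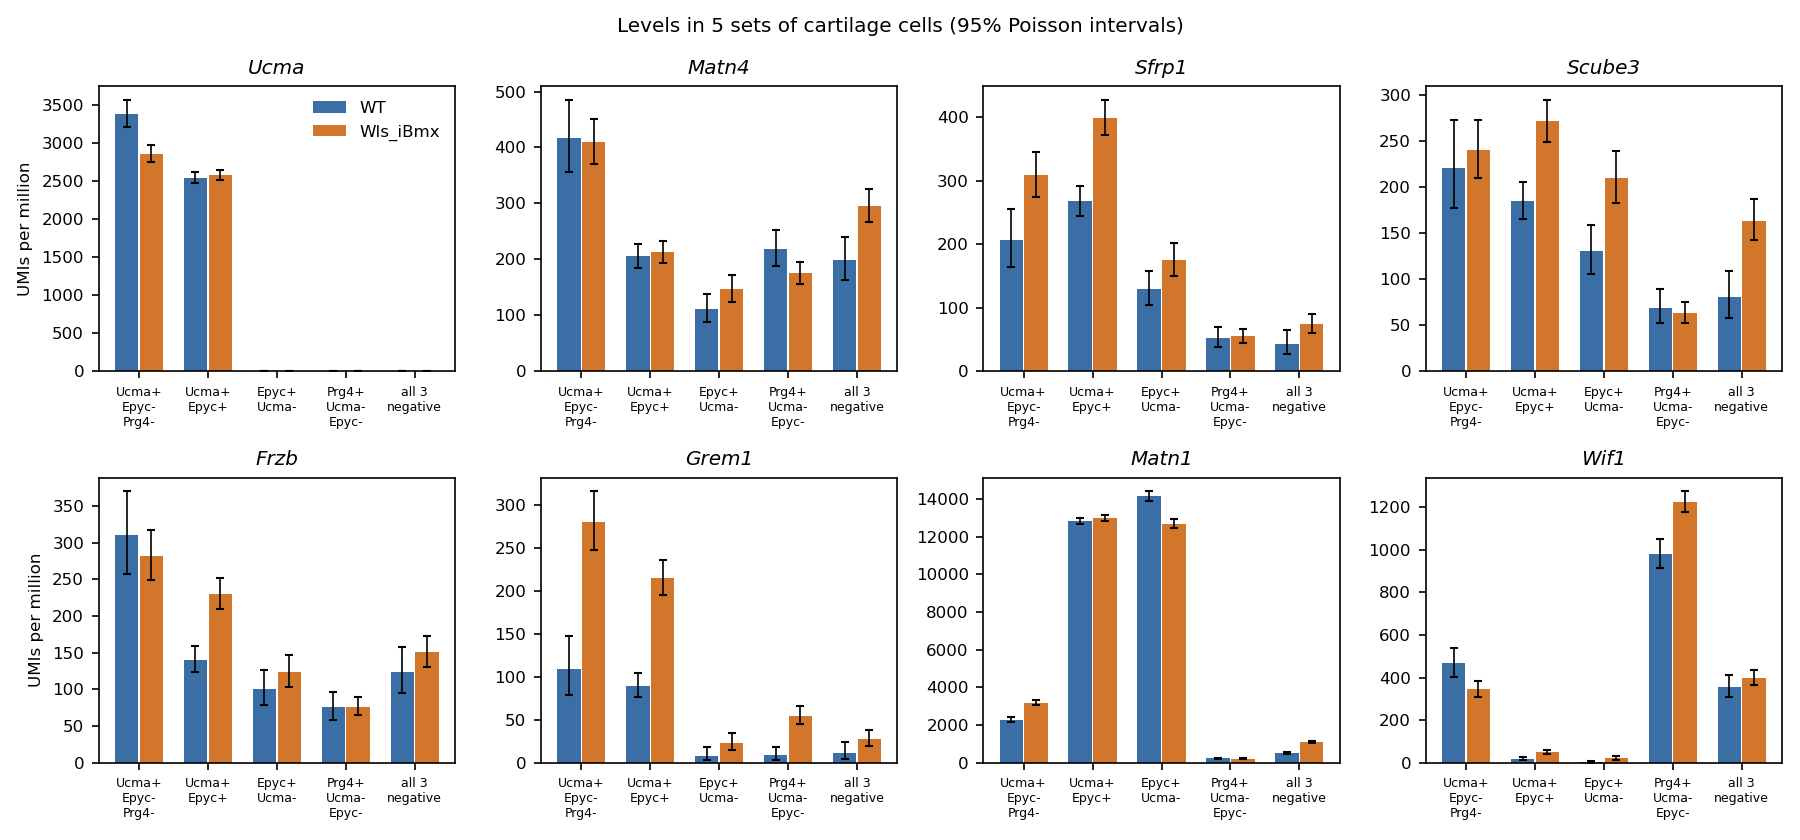
Levels of 8 genes in 5 sets of cartilage cells, in CPM, for the WT library and the Bmx-CreER Wls library (named Wls_iBmx in the plot); bars are summed levels and error bars 95% Poisson intervals. *Matn4* was highest in the *Ucma*+*Epyc*- cells (417 and 409), whereas *Matn1* was far lower there (2290 and 3187) than in the *Ucma*+*Epyc*+ cells (12836 and 12982).

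The label of reserve chondrocytes was checked against a list of 10 resting-zone genes, of which 9 had enough UMIs. Only *Grem1* was at least 2-fold higher than in other cartilage in both libraries, 3 of 9 were above other cartilage in both and 5 were below it in both, with median log2 ratios of -0.07 and -0.34 beside -0.08 and -0.07 over all genes tested. *Grem1*, a secreted BMP antagonist, stood at 109 [79.1 to 147] and 280 [248 to 316] CPM against 39.9 and 70.6. *Pthlh*, which encodes parathyroid hormone-related protein, stood at 25.4 (10 UMIs) and 30.1 (29 UMIs) against 10.9 and 18.8, and was found in 5.62% and 6.16% of the cells. *Sfrp5*, another Wnt antagonist, stood at 30.5 and 47.8 against 27.3 and 34.7.

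Among other resting-zone genes, *Gas1* and *Nt5e* stood lower in these cells in both libraries. *Gas1*, a membrane co-receptor for Hedgehog, stood at 221 and 213 CPM against 315 and 464, and was highest in *Prg4*+ cells at 1201 and 1400. *Wif1*, a Wnt inhibitor, went in opposite directions in the libraries, with 468 against 292 in WT and 344 against 449 in Bmx-CreER Wls. *Nt5e*, the ectonucleotidase CD73, stood at 48.3 and 51.9 against 87.0 and 126. Because the list as a whole did not stand out, the cells are named here by their genes and not as a zone.

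Over the whole transcriptome few genes were at least 2-fold higher in the set. Of 9708 genes with at least 50 UMIs over both sides in each library, 33 were at least 2-fold higher in *Ucma*+*Epyc*- cells than in all other cartilage cells in both libraries (0.340%) and 411 were at least 2-fold lower (4.23%). The minimum of 50 UMIs is met mostly by the much larger set of other cells. When at least 10 UMIs were required to be expected in the cells themselves, a setting added after the data were seen, 5290 genes remained, with 15 higher and 199 lower. *Ucma* itself was 3.65-fold and 4.02-fold higher, as the rule fixed.

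Several genes of the extracellular matrix were among the higher genes. *Thbs2*, a matricellular thrombospondin, stood at 295 [244 to 354] and 254 [224 to 288] CPM against 69.3 and 84.4 in other cartilage, a ratio of 4.25 [3.46 to 5.19] and 3.02 [2.62 to 3.46]. *Tnn*, a tenascin of bone-forming and fibrous tissue, stood at 135 [101 to 176] and 137 [115 to 163] against 26.3 and 49.9. *Itga9*, an integrin subunit that binds tenascins, stood at 132 and 129 against 34.5 and 49.0. These genes were named because their ratios were among the 15 largest, so their intervals give no support beyond the values. The intervals also treat UMIs of 1 cell as independent, and *Tnn* was found in 13.8% and 14.8% of the cells.

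*Col14a1*, a fibril-associated collagen, was 2.65-fold and 2.22-fold higher, at 417 and 372 CPM. *Ogn*, the small leucine-rich proteoglycan osteoglycin, was 2.82-fold and 2.17-fold higher, at 607 and 428. *Itgbl1*, a secreted integrin beta-like protein, was 3.13-fold and 2.20-fold higher, at 173 and 160. *Srpx*, a sushi-repeat protein, was 2.37-fold and 2.06-fold higher, at 816 and 615. *Fras1*, an extracellular protein of basement membranes, rested on 15 and 44 UMIs and was 2.83-fold and 2.82-fold higher.

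Signalling genes formed a further part of the higher genes. *Ltbp1*, which holds latent TGF-beta in the matrix, stood at 104 [74.8 to 141] and 103 [83.6 to 125] CPM against 28.8 and 28.6, a ratio of 3.62 [2.54 to 5.05] and 3.59 [2.85 to 4.49]. *Grem1* was 2.74-fold [1.95 to 3.77] and 3.97-fold [3.46 to 4.55] higher. *Penk*, the precursor of enkephalin peptides, stood at 572 [499 to 652] and 476 [433 to 521] against 177 and 210. *Sfrp2*, a Wnt antagonist, rested on 17 and 57 UMIs and was 4.28-fold [2.39 to 7.25] and 3.24-fold [2.39 to 4.33] higher. *Shisa3*, which lowers Wnt and FGF receptor signalling, rested on 23 and 55 UMIs and was 4.91-fold and 2.80-fold higher. *Trib2*, a pseudokinase, stood at 183 and 119 against 74.3 and 58.1.

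The highest ratio belonged to *Rnf128*, an E3 ubiquitin ligase, with 16 and 46 UMIs in the set and a ratio of 6.90 [3.68 to 12.3] and 4.83 [3.38 to 6.79]. *Vcam1*, an adhesion molecule, had 10 and 39 UMIs and a ratio of 3.35 [1.54 to 6.55] and 3.95 [2.7 to 5.66]. *Grin3a*, a glutamate receptor subunit, had 9 and 14 UMIs, *Tcea3*, a transcription elongation factor, 7 and 19, and *Zfp239*, a zinc finger protein, 9 and 22. *Cd36*, a fatty acid receptor, was 3.15-fold and 3.25-fold higher by its sums, but its 17 WT UMIs came from 1 cell and its 21 Bmx-CreER Wls UMIs from 2 cells. Genes with so few UMIs in the set rest on few cells.

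**Figure D2:**
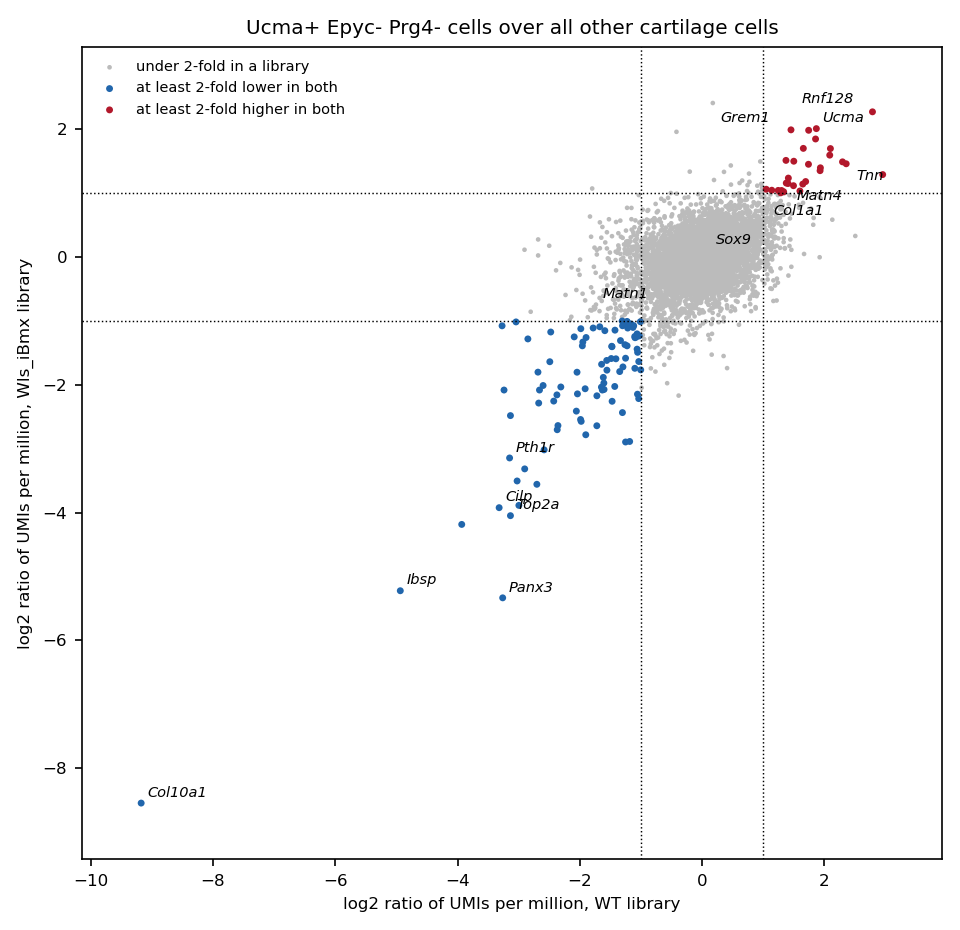
Each point is 1 of the 9708 genes compared, at its log2 ratio of CPM in *Ucma*+*Epyc*- cells over all other cartilage cells. The x axis is the WT library and the y axis the Bmx-CreER Wls library (Wls_iBmx). Genes with under 20 UMIs in the set over both libraries are not drawn, though the counts given include them. Dotted lines mark 2-fold: 33 genes were higher and 411 lower in both libraries, among the latter *Col10a1*, which the rule kept low, *Ibsp* and *Panx3*.

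The lower genes included genes of later cartilage stages, of bone matrix and of the cell cycle. *Col10a1*, *Epyc* and *Prg4* were held low by the rule. Of 12 other prehypertrophic and hypertrophic genes tested, 10 were at least 2-fold lower in both libraries, beside 4.23% of all genes tested. None was higher, and the median log2 ratios were -2.89 and -3.31. *Panx3*, a channel protein of prehypertrophic cells, stood at 86.4 and 14.5 CPM against 829 and 587 in other cartilage. *Pth1r*, the receptor of parathyroid hormone-related protein, stood at 43.2 and 28.0 against 383 and 248. *Ihh*, the Hedgehog ligand of the growth plate, had 9 UMIs in WT, all in 1 cell, and 2 in Bmx-CreER Wls, a level of 22.9 and 2.08 against 220 and 161.

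The bone matrix genes *Ibsp* and *Spp1* stood at 22.9 and 13.5 and at 10.2 and 5.19 CPM, against 701 and 505 and 241 and 225. *Smpd3*, a sphingomyelinase needed for mineralization, stood at 25.4 and 13.5 against 388 and 246. *Slc13a5*, a citrate transporter, and *Ddit4l*, an inhibitor of mTOR signalling, had at most 2 UMIs in the set in a library. Of 26 cell cycle genes tested, 12 were at least 2-fold lower, beside 4.23% of all genes tested. *Ube2c*, a mitotic ubiquitin-conjugating enzyme, stood at 10.2 and 12.5 against 167 and 200. The limits on *Col10a1* and on mitotic genes had excluded *Col10a1*-positive and dividing cells beforehand. The remaining prehypertrophic genes of the list outside this pattern were *Vegfa*, at 142 and 165 against 143 and 153, and *Mmp13*, which is described with the libraries.

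Wnt ligands were rare in the set. Of 19 ligand genes, 5 had enough UMIs to be compared. Of these, 4 were at least 2-fold lower in both libraries, beside 4.23% of all genes tested, and none was higher. The minimum was met mostly through the larger set of other cells, so a gene low in those could seldom be compared. Those cells also included the *Col10a1*-positive and dividing cells that the rule removed. The count therefore does not decide whether ligands were lower as a group, and counts of lower genes in other lists share this limit. Summed over the list, ligands stood at 63.5 and 33.2 CPM against 239 and 210. *Wnt5a*, a non-canonical ligand, had 10 and 14 UMIs, a level of 25.4 and 14.5 CPM against 101 and 84.8. *Wnt5b* had 4 and 5 UMIs, *Wnt4* 3 and 4 and *Wnt11* 8 and 8. No UMI of 11 other ligands was found in the set in either library, which at a floor of 3 counts does not show that they are absent.

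Wnt antagonists had no common direction. Of 10 tested, *Sfrp2* was at least 2-fold higher and *Notum*, a secreted enzyme that inactivates Wnt proteins, at least 2-fold lower, at 22.9 and 14.5 CPM against 45.9 and 49.5. The median log2 ratios were 0.44 and -0.43. Of 25 Wnt receptor and pathway genes, 1 was at least 2-fold lower, *Rspo3*, a secreted enhancer of Wnt signalling, and none was higher. For both lists, the shares over all genes tested were 0.340% higher and 4.23% lower.

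Over all genes tested, 0.340% were at least 2-fold higher and 4.23% lower. In the BMP and TGF-beta list, 34 genes were tested, of which *Grem1* and *Ltbp1* were at least 2-fold higher and 5 were at least 2-fold lower. The lower ones were *Bmp2*, a ligand at 43.2 and 29.1 CPM against 135 and 93.2, the ligand *Tgfb1*, the antagonists *Nog* and *Chrdl1*, and *Scube1*. *Nog* had 2 and 11 UMIs, and *Tgfb1* had 1 in each library. Such genes were compared mostly through UMIs of the other cells, so the count of lower genes does not decide the direction of the list. *Fstl1*, a secreted follistatin-like protein, stood at 1870 and 1692 against 863 and 1100. Targets of BMP signalling were near the rest of the cartilage: *Id1* stood at 81.3 and 66.5 against 83.5 and 88.0, and *Id3* at 371 and 360 against 416 and 355.

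In the Hedgehog and PTHrP list, 14 genes were tested and 2 were at least 2-fold lower, *Ihh* and *Pth1r*, and none was higher. The share lower over all genes tested was 4.23%. *Gli1*, a target of Hedgehog signalling, stood at 50.8 and 21.8 CPM against 48.3 and 33.7. *Gli3*, a repressor of the pathway, stood at 107 and 117 against 77.5 and 88.5, and the co-receptor *Boc* at 130 and 172 against 66.0 and 121. Of 14 genes tested in the FGF list, none was at least 2-fold higher or lower in both libraries. *Fgfr1* stood at 523 and 588 against 318 and 453, and *Fgfr3*, the receptor that restrains growth of columnar chondrocytes, at 259 and 270 against 513 and 379.

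The imprinted growth genes were abundant. *H19*, a non-coding RNA, stood at 48438 and 46463 CPM against 30405 and 33815 in other cartilage, and *Igf2*, a fetal growth factor, at 20209 and 21764 against 15362 and 18624. Neither reached 2-fold, and none of 12 tested genes of the IGF list did in both libraries. The same held for 14 transcription factors of the SOX and chondrogenic list, 17 genes of glycosaminoglycan synthesis, 27 of glycolysis and hypoxia, 14 *Hox* and limb genes and 9 of the Gla protein list. *Mgp*, the Gla protein that prevents cartilage mineralization, stood at 2531 and 2894 against 2357 and 3537.

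The *Ucma*+*Epyc*+ cells differed from the set in *Epyc* by the rule. Of 5351 genes tested, 58 were at least 2-fold higher in both libraries (1.08%) and 73 at least 2-fold lower (1.36%). *Matn1*, a matrilin abundant in epiphyseal cartilage, stood at 2290 [2142 to 2444] and 3187 [3075 to 3302] CPM, against 12836 and 12982 in *Ucma*+*Epyc*+ cells and 14136 and 12689 in *Epyc*+ cells. *C1qtnf3*, a secreted C1q family protein of cartilage, stood at 389 and 393 against 2870 and 2090 in *Ucma*+*Epyc*+ cells. *Prg4*+ cells had little of either, with *Matn1* at 236 and 212 and *C1qtnf3* at 9.88 and 20.8. The *Ucma*+*Epyc*- cells thus lay between the sets for both genes.

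*Wif1* had the opposite order. It stood at 468 [402 to 540] and 344 [308 to 383] CPM in the set, 17.8 and 50.5 in *Ucma*+*Epyc*+ cells, 1.37 and 20 in *Epyc*+ cells, and 981 and 1225 in *Prg4*+ cells. *Cytl1*, a secreted cytokine-like protein of cartilage, followed the same order, with 2137 and 1766 in the set, 452 and 907 in *Ucma*+*Epyc*+ cells and 6567 and 6004 in *Prg4*+ cells. *Itgbl1* stood at 173 and 160 in the set and 175 and 160 in *Prg4*+ cells, but at 7.57 and 8.82 in *Ucma*+*Epyc*+ cells, and had no UMI in *Epyc*+ cells. For *Wif1* and *Itgbl1* the cells of the set were nearer in ratio to *Prg4*+ cells than to *Ucma*+*Epyc*+ cells.

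*Tnn* was higher in the set than in the 4 other sets. It stood at 135 and 137 CPM against 6.49 and 20.6 in *Ucma*+*Epyc*+ cells, 1.37 and 3.81 in *Epyc*+ cells, 24.7 and 46.8 in *Prg4*+ cells and 52.4 and 69.6 in triple-negative cells. Cells with a single *Ucma* UMI, just outside the rule, had 82.9 and 168, above the set in Bmx-CreER Wls. *Tnc*, tenascin-C, stood at 529 and 438 against 102 and 81.8 in *Ucma*+*Epyc*+ cells, but at 752 and 832 in *Prg4*+ cells. *Thbs2* stood at 295 and 254 against 41.6 and 67.1 in *Ucma*+*Epyc*+ cells. *Col1a1* stood at 14260 and 9667 in the set, at 1778 and 1734 in *Ucma*+*Epyc*+ cells and at 51506 and 27273 in triple-negative cells, and thus moved with the higher matrix genes; its part in these differences was not tested.

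*Grem1* and *Smoc2* were shared by the set and the *Ucma*+*Epyc*+ cells. *Grem1* stood at 109 and 280 CPM in the set and 89.8 and 215 in *Ucma*+*Epyc*+ cells, but at 8.23 and 22.9 in *Epyc*+ cells and 8.65 and 54.6 in *Prg4*+ cells. The ratio of the set over *Ucma*+*Epyc*+ cells was 1.22 [0.849 to 1.71] in WT and 1.31 [1.12 to 1.52] in Bmx-CreER Wls. *Smoc2*, a secreted matricellular protein, stood at 180 and 280 in the set, 379 and 358 in *Ucma*+*Epyc*+ cells and 7.41 and 26.0 in *Prg4*+ cells.

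Against *Epyc*+ cells, 126 of 3325 genes tested were at least 2-fold higher in both libraries (3.79%) and 131 at least 2-fold lower (3.94%). The lower genes included *Panx3*, at 86.4 and 14.5 CPM against 1585 and 1193, *Runx2*, a transcription factor of hypertrophy and bone, at 25.4 and 18.7 against 251 and 192, and *Ihh*, at 22.9 and 2.08 against 274 and 305. *Fgfr3* stood at 259 and 270 against 1033 and 793. The higher genes included *Postn*, a matricellular protein of fibrous tissue, at 206 and 179 against 27.4 and 26.7, and *Vcan*, an aggregating proteoglycan of immature matrix, at 241 and 195 against 16.5 and 33.3. *Matn4* and *Frzb* were also at least 2-fold higher than in *Epyc*+ cells in both libraries.

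Against *Prg4*+ cells, 45 of 3874 genes tested were at least 2-fold higher in both libraries (1.16%) and 182 at least 2-fold lower (4.70%). *Cilp*, a protein of articular cartilage, stood at 33.0 and 17.7 CPM against 1658 and 948. *Creb5*, a transcription factor of superficial cartilage, stood at 68.6 and 69.6 against 425 and 370, and *Bmp2* at 43.2 and 29.1 against 420 and 248. *Chad*, the cartilage protein chondroadherin, stood at 663 and 494 against 98.8 and 116, and *Lum*, the proteoglycan lumican, at 241 and 203 against 51.9 and 48.9. *Sfrp1*, *Scube3* and *Frzb* were also at least 2-fold higher than in *Prg4*+ cells in both libraries.

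Against triple-negative cells, 18 of 2963 genes tested were at least 2-fold higher (0.607%) and 95 at least 2-fold lower (3.21%). *Ibsp* stood at 22.9 and 13.5 CPM against 6727 and 2434, so that the triple-negative cells included cells with bone matrix transcripts. *Sfrp1* stood at 206 and 308 against 43.0 and 74.0, and *Matn1* at 2290 and 3187 against 511 and 1083. *Prss35*, a secreted protease-like protein, stood at 175 and 272 against 44.9 and 94.0.

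The cells were not uniform. Among 488 genes with at least 100 UMIs in the cells of each library, the dispersion of counts beyond the cell's depth, which is 1 for Poisson counting, had medians of 1.22 and 1.21. *Col1a1* varied most, with a dispersion of 67.2 and 47.6, followed by *Col2a1* at 44.0 and 27.6 and *Col1a2* at 25 and 22.3. The early response genes *Zfp36*, *Fos*, *Jun* and *Egr1* were also among the 12 most variable genes, *Zfp36* with 20.8 and 19. The others were *H19*, *Matn1*, *Tmsb4x*, *Cytl1* and *Dlk1*.

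To describe this spread, the cells of each library were ranked by their *Col1a1* level and split into terciles, a choice made after the dispersion was seen. The cuts lay at 15.6 and 133 *Col1a1* UMIs per 10000 in WT and at 8.90 and 73.5 in Bmx-CreER Wls, with 22 and 40 cells within 20% of a cut, so the terciles are ranges and not types. No *Col1a1* UMI was found in 24 and 78 cells. Cells of the top tercile had medians of 2581 and 2794 UMIs, and those of the bottom tercile 2221.5 and 2491.

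Fibrous matrix genes were higher in cells ranked high for *Col1a1* and several cartilage genes were lower. *Col1a2*, the other type I collagen chain, was 4.97-fold [4.55 to 5.43] and 3.72-fold [3.52 to 3.93] higher in the top tercile than in the bottom. *Itgbl1* was 7.36-fold [3.15 to 21.0] and 14.2-fold [6.65 to 36] higher, *Postn* 5.74-fold and 5.42-fold, *Thbs2* 4.08-fold and 3.39-fold and *Tnn* 4.89-fold and 2.67-fold. *Matn1* went from 4167 to 754 CPM in WT and from 4142 to 1694 in Bmx-CreER Wls. *C1qtnf3* went from 758 to 56.9 and from 548 to 240, and *Lum* from 434 to 49.8 and from 294 to 57.2. *Col2a1* went from 83112 to 51481 and from 79893 to 50056.

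The markers of the set did not follow 1 direction along this axis. *Ucma* itself was nearly level, with a ratio of 0.918 [0.807 to 1.04] and 1.08 [0.988 to 1.19]. *Sfrp1* was lower in the top tercile, with ratios of 0.546 [0.297 to 0.980] and 0.712 [0.529 to 0.955]. *Matn4* was at 1.32 [0.882 to 1.99] and 1.59 [1.20 to 2.12], so that its interval held 1 in WT. *Scube3* was at 0.657 [0.385 to 1.11] and 0.511 [0.365 to 0.709]. *Frzb* was at 2.25 [1.41 to 3.70] in WT and 1.08 [0.799 to 1.46] in Bmx-CreER Wls. Across cells, the Spearman correlation of *Col1a1* and *Matn1* was -0.46 over 160 cells and -0.23 over 357 cells, which share library and depth range.

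**Figure D3:**
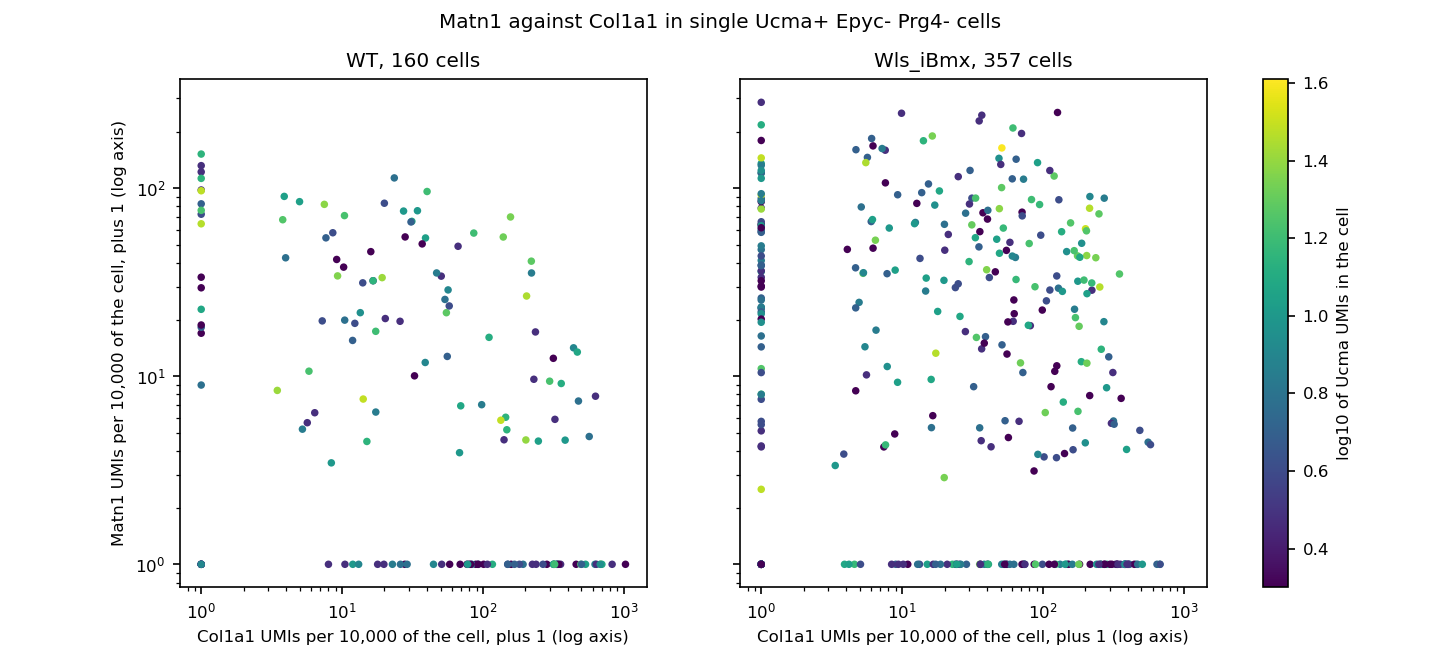
Each point is 1 *Ucma*+*Epyc*- cell of the WT library (left, 160 cells) or the Bmx-CreER Wls library (right, 357 cells), at its *Col1a1* and *Matn1* UMIs per 10000 plus 1 on log axes, coloured by the log10 of its *Ucma* UMIs. Cells with much *Col1a1* were often without *Matn1*, and 24 and 78 cells had no *Col1a1* UMI.

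A second ranking, by *Ucma* itself, was made in the same way, with cuts at 17.7 and 40.2 *Ucma* UMIs per 10000 in WT and 16.3 and 32.7 in Bmx-CreER Wls. Cells within 20% of a cut numbered 64 and 125, so that neighbouring terciles are not sharply separated. *Smoc2* was 4.30-fold [2.03 to 10.2] and 2.82-fold [2.05 to 3.92] higher in the top tercile, *Grem1* 3.79-fold [1.59 to 10.4] and 2.12-fold [1.57 to 2.89] and *C1qtnf3* 3.49-fold [2.22 to 5.65] and 2.21-fold [1.73 to 2.85]. *Matn1* was 1.54-fold and 2.46-fold higher. *Matn4*, *Scube3* and *Frzb* had ratios from 0.849 to 1.37, close to level.

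*Wif1*, *Tnn* and early response genes were lower in the cells with most *Ucma*. *Wif1* had a ratio of 0.313 [0.205 to 0.468] and 0.608 [0.456 to 0.805] and *Tnn* of 0.402 [0.155 to 0.938] and 0.406 [0.227 to 0.695]. *Klf4*, a transcription factor, had 0.354 and 0.350, *Fosb* 0.455 and 0.304 and *Egr1* 0.678 and 0.519. *Fos* and *Egr1*, which digestion of tissue is known to induce, had a Spearman correlation of 0.66 and 0.74 across cells. Of 20 early response genes, 4 were at least 2-fold lower in the set than in other cartilage in both libraries, beside 4.23% of all genes tested. These were *Atf3*, *Dusp1*, *Hspa1a* and *Btg2*, and none of the 20 was higher. The part of digestion in these values was not tested.

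**Figure D4:**
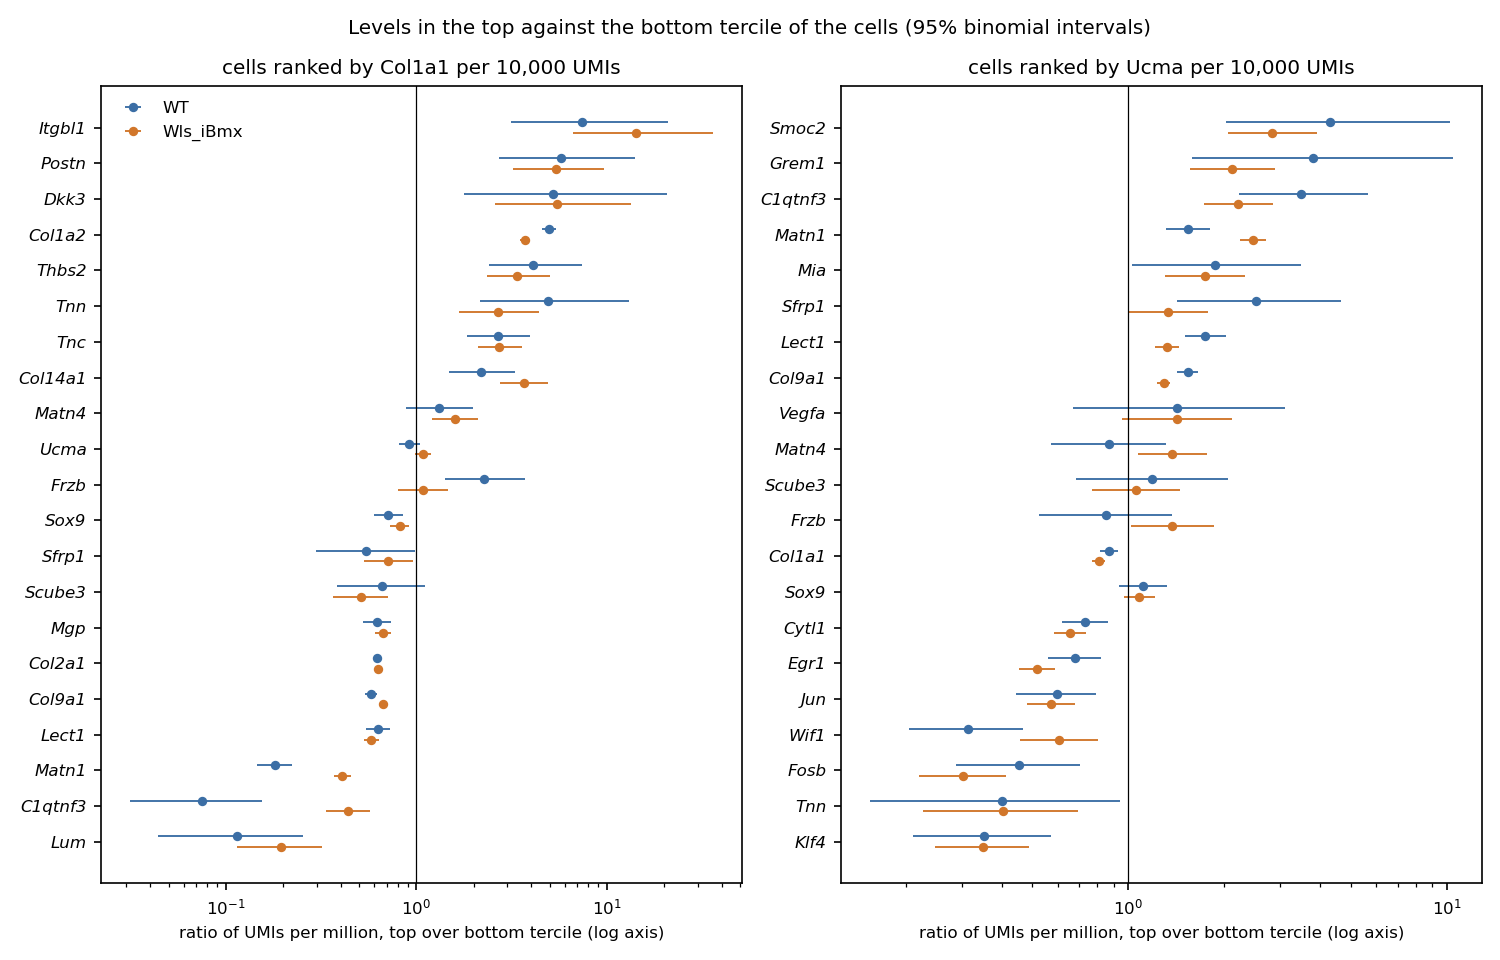
Ratios of CPM in the top over the bottom tercile of *Ucma*+*Epyc*- cells, on log axes, with cells ranked by *Col1a1* (left) or *Ucma* (right); points are WT and Bmx-CreER Wls (Wls_iBmx) and lines 95% conditional binomial intervals. Along *Col1a1* rank, *Itgbl1* was highest (7.36 and 14.2) and *Matn1* low (0.181 and 0.409), while along *Ucma* rank *Smoc2* and *Grem1* were higher and *Klf4* and *Tnn* lower.

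Between the libraries, most genes of the set had close levels. Of 3910 genes with at least 50 UMIs over both, 49 were at least 2-fold higher in Bmx-CreER Wls than in WT (1.25%) and 18 at least 2-fold lower (0.460%). The set held 393535 UMIs in WT and 962936 in Bmx-CreER Wls. A gene near the minimum could therefore pass through its Bmx-CreER Wls counts with few WT UMIs. With a minimum of 200 UMIs, 4 of 967 genes were higher and 0 lower. Of the markers, *Matn4* had a ratio of Bmx-CreER Wls over WT of 0.982 [0.816 to 1.19], *Scube3* of 1.09 [0.844 to 1.41], *Frzb* of 0.908 [0.730 to 1.13] and *Ucma* of 0.845 [0.791 to 0.903]. *Sfrp1* was at 1.5 [1.17 to 1.94]. The interval covers counting error alone, and no spread between embryos is known.

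*Grem1* was the gene of the resting-zone list and of the BMP list that was at least 2-fold higher in Bmx-CreER Wls. Its 43 UMIs in WT and 270 in Bmx-CreER Wls gave a ratio of 2.57 [1.85 to 3.63], and other cartilage cells had a ratio of 1.77 [1.57 to 2.01]. *Slc16a3*, a lactate transporter, had 21 and 133 UMIs and a ratio of 2.59 [1.63 to 4.32], against 1.35 in other cartilage. *Car9*, a carbonic anhydrase of hypoxic cells, had a ratio of 2.39 [1.48 to 4.06], against 2.28 in other cartilage. *Vwa1*, a matrix protein of cartilage, had 2.64 [1.39 to 5.52], against 2.68, and 1.70 in cells of the set with neither *Xist* nor Y-linked UMIs. In those cells, which can be of either sex, *Grem1* was at 2.48, *Slc16a3* at 3.25 and *Car9* at 2.25. For *Car9* and *Vwa1* the libraries thus differed by about as much in other cartilage cells.

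*Serpina3n*, a serine protease inhibitor, had the largest ratio among genes that are neither mitochondrial, ribosomal, haemoglobin nor sex-linked by *Xist* or the Y, with 4 and 49 UMIs and 5.01 [1.84 to 19.1]. Other cartilage cells had a ratio of 2.94. *Prkag1*, a subunit of AMP-activated kinase, had 7 and 56 UMIs and *Vps72*, a chromatin remodelling subunit, 9 and 68. The remaining genes among the 10 largest were *Gm10275*, *2610019E17Rik*, *Fam192a*, *Fam45a* and *Cyhr1*. In cells with neither *Xist* nor Y-linked UMIs these were at 6.97, 5.73, 5.11, 1.86 and 3.14. The ribosomal protein gene *Rps3a1* was at 2.50 [2.08 to 3.03], and at 2.01 in other cartilage.

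Among the lower genes, *Mmp13*, the collagenase of hypertrophic cartilage and bone, had 38 UMIs in WT, all in 1 cell, and 25 in Bmx-CreER Wls in 3 cells. Its ratio of 0.269 [0.156 to 0.457] therefore rests on few cells, and in cells with neither *Xist* nor Y-linked UMIs it had 0 and 24 UMIs, the opposite direction. *Col8a1*, a short-chain collagen, had 44 and 30 UMIs and a ratio of 0.279 [0.169 to 0.453], against 1.04 in other cartilage. *Atl3*, *Sh3kbp1* and *H2-D1* had ratios from 0.319 to 0.378. In cells with neither *Xist* nor Y-linked UMIs, *H2-D1* turned to 1.12, on 5 and 12 UMIs, *Atl3* was at 0.127 and *Sh3kbp1* at 0.349. *Apc*, the scaffold that holds beta-catenin in check, had 0.446 [0.270 to 0.738], and 0.519 in cells with neither. The others of the 10 smallest were *Rc3h1*, *2810417H13Rik*, *Kif1b* and *Ube2g2*, at 0.338, 0.372, 0.620 and 0.496 in cells with neither.

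*Matn1* and *Col1a1* also differed, without reaching 2-fold. *Matn1* was at 1.39 [1.29 to 1.5], whereas other cartilage cells were at 0.701 [0.694 to 0.708]. *Col1a1* was at 0.678 [0.656 to 0.701], against 0.970 in other cartilage. *Cytl1* and *Wif1* were at 0.827 and 0.735 in the set but at 1.55 and 1.53 in other cartilage. The set and the other cartilage cells thus moved in opposite directions for *Matn1*, *Cytl1* and *Wif1*.

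**Figure D5:**
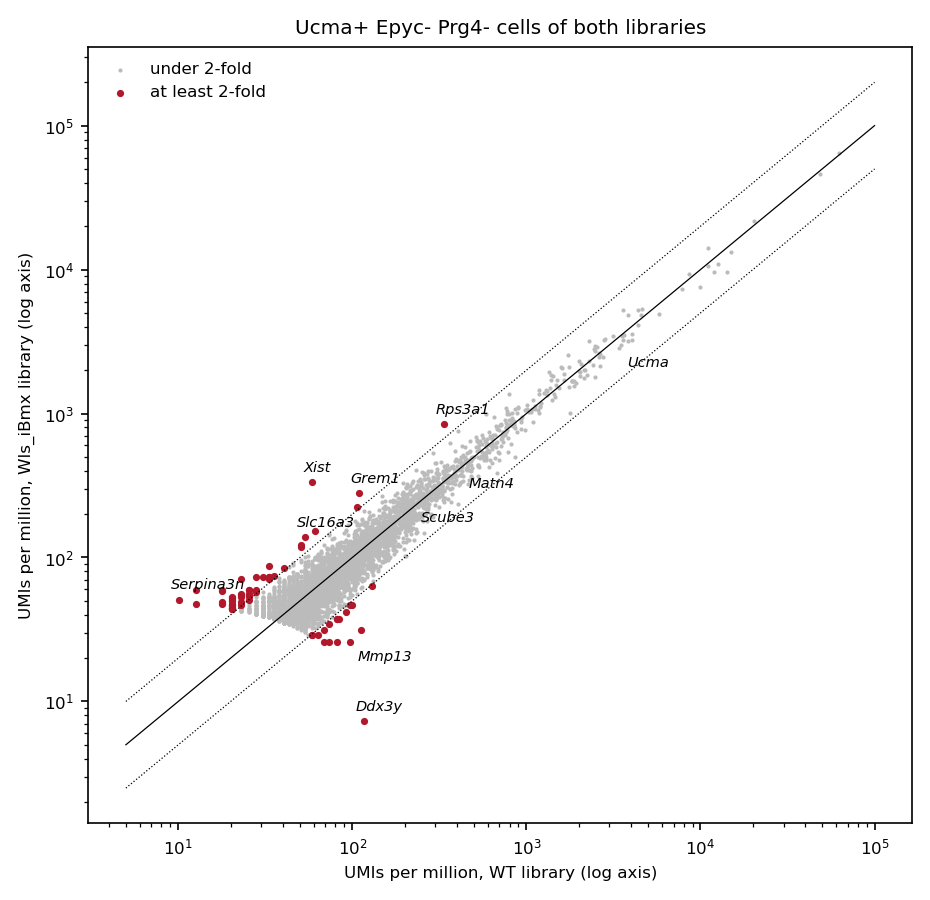
Each point is 1 of 3910 genes, at its CPM in the *Ucma*+*Epyc*- cells of the WT library (x axis) and of the Bmx-CreER Wls library (y axis, Wls_iBmx), both on log axes; the solid line marks equal levels and dotted lines 2-fold. *Ucma* and *Matn4* lay near the line, *Xist*, *Serpina3n* and *Grem1* above it and *Ddx3y* and *Mmp13* below it.

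The mix of embryo sexes differed between the libraries by these cells' transcripts. Among WT cells, 16 had only *Xist*, which is expressed from the inactive X chromosome of females, 53 only Y-linked UMIs and 91 neither. Among Bmx-CreER Wls cells, 174 had only *Xist*, 5 only Y-linked UMIs, 1 both and 177 neither. *Xist* accordingly had a ratio of 5.72 [3.75 to 9.16], and the Y-linked *Ddx3y* of 0.0622 [0.0237 to 0.139]. Sex and genotype cannot be told apart in these libraries.

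*Wls* was checked in the cells that Cre targets and in the chondrocytes. Arterial endothelial cells, taken as cells with *Cdh5* and *Gja4* UMIs, numbered 94 and 81 and held 20 and 3 *Wls* UMIs, a level of 54.0 [33.0 to 83.4] and 8.85 [1.83 to 25.9] CPM. The *Ucma*+*Epyc*- cells held 42 and 78 *Wls* UMIs, at 107 [76.9 to 144] and 81.0 [64.0 to 101], a ratio of 0.759 [0.515 to 1.13]. Other cartilage cells stood at 114 and 112. *Nkd1*, a target of Wnt signalling, had 14 and 47 UMIs in the set and a ratio of 1.37 [0.743 to 2.7], and *Axin2*, another target, had 5 and 7 and a ratio of 0.572 [0.156 to 2.29]. At these counts a difference in the Wnt targets was not detectable in the set.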

How the data were processed

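Femoral cells of 1 WT and 1 Bmx-CreER Wls library were measured by BD Rhapsody whole-transcriptome single-cell RNA sequencing. The authors deposited 1 table per library of raw UMI counts, listing gene, barcode and count. Per the labels, the submitters' processing notes name bcl2fastq 2.19.1.403, UMI-tools 1.0.1, STAR 2.7.1a, Subread featureCounts 1.6.4 and the build mm10. Reads that genes share with near-identical copies or with overlapping and antisense genes may be split or misassigned by such counting.

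A cell was kept with 201 to 4999 genes and under 30% mitochondrial UMIs. The cells described and the gene lists were chosen with earlier results of these data known. The *Ucma*+*Epyc*+ set and the terciles were chosen after the data were seen. Counts were summed over cells and divided by the summed UMIs. A gene was tested, that is compared, with at least 50 UMIs over both sides, in each library where both were used, and called at a ratio of at least 2 in 1 direction. A count of 0 was given a floor of 3 counts per set for log2 ratios. No test between conditions was made, since each has 1 library. Intervals are at 95%.

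Named genes were those of the rule and the markers, the 15 largest and 10 smallest ratios over other cartilage, list members at least 2-fold in both libraries or highest in level, the 10 largest and 10 smallest ratios between libraries, the 12 most dispersed genes, and ligands, receptors and targets of the pathways. *Rps3a1*, *Car9*, *Nkd1* and genes named only in the comparisons with the other sets or in the terciles were chosen partly after their values were seen.

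No doublets were removed, because the automatic threshold of Scrublet marked 0.662% of WT cells and 0 Bmx-CreER Wls cells and so did not separate them. Alternatives were other limits on *Ucma*, *Epyc*, depth and mitochondrial share, removal of the top 5% by Scrublet score, thinning to 1000 UMIs, the mean over cells, other totals, TMM scaling and other minimum counts. Symbols were placed with GENCODE and RefSeq annotation of GRCm38. The computation was tested on simulated data. Scrublet was run from scanpy 1.11.5, intervals came from scipy 1.17.1, and figures from matplotlib 3.10.9, under Python 3.11.15 with pandas 2.3.3 and numpy 2.4.6. TMM factors came from edgeR 4.0.16 in R 4.3.3.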

Additional observations from a re-analysis of the deposited data

How the results depend on the processing

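The main limit is 1 library per condition, with a different mix of embryo sexes in each. The shares moved with the limits of the rule: with *Ucma* at 3 or more UMIs they were 2.34% and 4.4% of kept cells and 5.02% and 6.62% of cartilage cells, with *Ucma* at 4 or more per 10000 UMIs 3.43% and 6.53% and 7.38% and 9.83%, and with *Epyc* at most 1 UMI (added after the data were seen) 3.43% and 6.39% and 7.38% and 9.62%. They were higher in Bmx-CreER Wls in each case. The 33 genes higher over other cartilage became 14 with thinning to 1000 UMIs, 20 with the mean over cells, 64 and 16 with minimums of 20 and 200 UMIs and 15 with 10 expected UMIs, and the 411 lower genes became 223 with thinning, 222 with the minimum of 200 and 199 with 10 expected UMIs. Thinning and higher minimums leave fewer UMIs or genes. Between libraries, the 49 higher genes became 19 with thinning and 289 and 4 with minimums of 20 and 200, and the 18 lower genes became 30 with *Ucma* at 4 or more per 10000, 11 with thinning, 143 and 0 with minimums of 20 and 200, and 36 with *Epyc* at most 1. In cells with neither *Xist* nor Y-linked UMIs (added after the data were seen), 40 were higher and 13 lower of 1990 tested. Such cells can be of either sex, so this subset does not take out the difference in sex mix.

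Of single genes, *Cd36* reversed with thinning to 0.934 in WT and 0.587 in Bmx-CreER Wls, *Glt8d2* to 0.531 in Bmx-CreER Wls, *Rb1* to 1.28 in WT and *Vopp1* to 0.981 between libraries. Without the cells of highest Scrublet score, *Acp5* reversed to 1.51 and *Coro1a* to 1.42 in WT, and with *Epyc* at most 1 *Omd* reversed to 1.16 in WT. The cause was not tested. No scaling moved the median log2 ratio of all genes by over 0.1. No paired analysis was possible because each condition has 1 library and no replicate numbers.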
